A study of Mus musculus with 9 samples.

Results

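Expression of 9 genes of programmed cell death was followed in the paraventricular nucleus of the hypothalamus (PVN) of mice on chow, on a high fat diet, or on a high fat diet with minocycline. The members were taken by symbol from the table of gene counts: Casp1, Casp8, Casp9, Apaf1, Bax, Bak1, Bcl2, Bcl2l1 and Bcl2l11. All 9 symbols were found among the 27179 listed genes, and all 9 passed the filter on low counts that left 17344 genes for testing. The animals were 9 male wild type mice labelled C57BL/6 (C57BL/6J in the study's methods), 3 independent mice per group, all given as postnatal day 35, and the study's methods place the start of the diets at about that age. Control mice ate chow with 16% of calories from fat for 12 weeks and HFD mice a diet with 60%. HFD+Mino mice ate the same 60% diet and drank minocycline, a tetracycline antibiotic that dampens microglial inflammation, at 40 mg/kg/day during the last 6 weeks. There was no group that received minocycline on chow, so minocycline was compared only within the high fat diet.

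Apoptosis is a controlled form of cell death. In its mitochondrial route, BH3-only proteins such as Bim sense damage, the pore formers Bax and Bak open the outer mitochondrial membrane, and prosurvival proteins such as Bcl2 and Bcl-xL hold them back. Cytochrome c that leaves the mitochondrion assembles with Apaf1 into the apoptosome, which activates caspase-9, while death receptors at the cell surface activate caspase-8. Caspase-1 belongs to inflammation instead: it is activated in inflammasomes, matures interleukin-1 beta and interleukin-18, and in the brain is mostly known from microglia. The transcripts of these genes say how much mRNA is present and nothing about the cleavage of caspases or the position of Bax in the cell.

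Promoters are shown for Bax and Casp1, the members with the most positive differences between HFD+Mino and HFD, and for Apaf1 and Bcl2l11, the members with the most negative ones. They are the RefSeq sequences of GRCm38.p6 from 250 bases before to 50 bases after a transcript start, at chr7:45466849-45467148 (minus strand) for Bax, chr9:5298267-5298566 (plus) for Casp1, chr10:91082694-91082993 (minus) for Apaf1 and chr2:128125788-128126087 (plus) for Bcl2l11, the first of 2 windows listed for that gene. Capitals mark the GC box letters GGGCGG, or CCGCCC on the other strand, and the E-box letters CACGTG, which read the same on both strands.
Bax: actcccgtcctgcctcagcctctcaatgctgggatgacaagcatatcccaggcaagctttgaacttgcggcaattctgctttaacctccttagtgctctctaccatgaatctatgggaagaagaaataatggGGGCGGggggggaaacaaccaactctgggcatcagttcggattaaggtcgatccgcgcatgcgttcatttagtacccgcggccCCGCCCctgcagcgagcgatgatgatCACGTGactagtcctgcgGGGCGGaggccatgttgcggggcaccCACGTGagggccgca
Casp1: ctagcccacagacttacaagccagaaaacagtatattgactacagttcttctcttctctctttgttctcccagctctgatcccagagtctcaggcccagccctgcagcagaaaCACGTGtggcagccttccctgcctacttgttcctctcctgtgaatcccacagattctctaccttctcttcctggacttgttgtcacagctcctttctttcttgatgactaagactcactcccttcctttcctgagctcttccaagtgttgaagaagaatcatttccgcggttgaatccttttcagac
Apaf1: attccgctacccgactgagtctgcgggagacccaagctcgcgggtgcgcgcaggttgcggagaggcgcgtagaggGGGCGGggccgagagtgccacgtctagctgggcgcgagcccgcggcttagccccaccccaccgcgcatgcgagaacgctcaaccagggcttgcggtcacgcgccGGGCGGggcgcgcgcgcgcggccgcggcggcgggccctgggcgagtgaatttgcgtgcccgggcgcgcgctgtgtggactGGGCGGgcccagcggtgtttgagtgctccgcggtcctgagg
Bcl2l11: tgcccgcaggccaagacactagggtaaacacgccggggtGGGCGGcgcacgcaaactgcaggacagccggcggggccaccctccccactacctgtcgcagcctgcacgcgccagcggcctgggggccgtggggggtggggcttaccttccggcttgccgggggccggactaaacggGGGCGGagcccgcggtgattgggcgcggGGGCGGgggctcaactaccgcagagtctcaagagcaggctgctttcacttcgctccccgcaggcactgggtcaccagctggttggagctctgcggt
The Bax window held 3 GC boxes and 2 E-boxes and the Casp1 window 1 E-box and no GC box. The Apaf1 and Bcl2l11 windows each held 3 GC boxes and no E-box. Of 32851 such windows in the table, 35.7% held a GC box and 7.15% the E-box letters. Of the 12 windows of the 9 members, 6 held a GC box and 2 an E-box. The windows differed in base composition, with 57.3% G and C for Bax, 48.0% for Casp1, 74.7% for Apaf1 and 71.0% for Bcl2l11, against a median of 52.7% over all windows. These are letter matches and not measured binding sites. The genes span chr7:45461695-45466903 (Bax), chr9:5298517-5307281 (Casp1), chr10:90989311-91082743 (Apaf1), chr2:128126038-128162547 (Bcl2l11), chr17:27019812-27028627 (Bak1), chr1:106538176-106714290 (Bcl2), chr2:152758732-152833803 (Bcl2l1), chr4:141793612-141815978 (Casp9) and chr1:58795233-58847503 (Casp8) of the same build, and the counts are over their exons.

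Libraries held from 17728590 to 42326213 counts, and values are given as CPM, that is counts after TMM scaling of the library sizes. The paraventricular neuropeptides vasopressin and oxytocin were used to check the tissue. In Control replicate 1 Avp was at 0.149 CPM and Oxt at 0.770 CPM, while the 6 paraventricular markers summed to 27.8 CPM there, 932 and 2563 CPM in the other Control libraries and 2479 to 3726 CPM in HFD. HFD+Mino replicates 1 and 2 stood at 37726 and 31917 CPM and replicate 3 at 3104 CPM. The 6 oligodendrocyte markers summed to 29217 CPM in Control replicate 1 and to between 2221 and 6886 CPM in the other 8 libraries. These 3 libraries, Control replicate 1 and HFD+Mino replicates 1 and 2, stood apart in these markers, and results are also given without them, which leaves HFD+Mino with 1 mouse assumed to vary like the others. In tissue punches, fewer cells of a type and less RNA per cell cannot be told apart.

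Across the 3 groups, Bax, the pore former, was the only member that edgeR's main test called in any comparison, and it was higher in HFD+Mino than in HFD. A gene was called in a pair of groups at a false discovery rate (FDR, the Benjamini-Hochberg adjusted p of edgeR's quasi-likelihood test over all tested genes) under 0.01 with a change of at least 1.5-fold. In the 3-way test, which compares all groups at once, HFD also had to be the highest or lowest group and differ from their common mean by 1.5-fold or more. Of the 9 members, 1 was called between HFD+Mino and HFD, where 4.15% of all tested genes were called. Between HFD and Control 0 members were called (background 1.74%), in the 3-way test 0 (background 2.13%), and between HFD+Mino and Control 0 (background 0%). At an unadjusted p under 0.05 the same edgeR test gave 4 members in the 3-way test (39.0% of all tested genes), 1 for HFD against Control (20.5% of all), 4 for HFD+Mino against HFD (41.3% of all) and 3 for HFD+Mino against Control (21.3% of all).

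**Figure D1:**
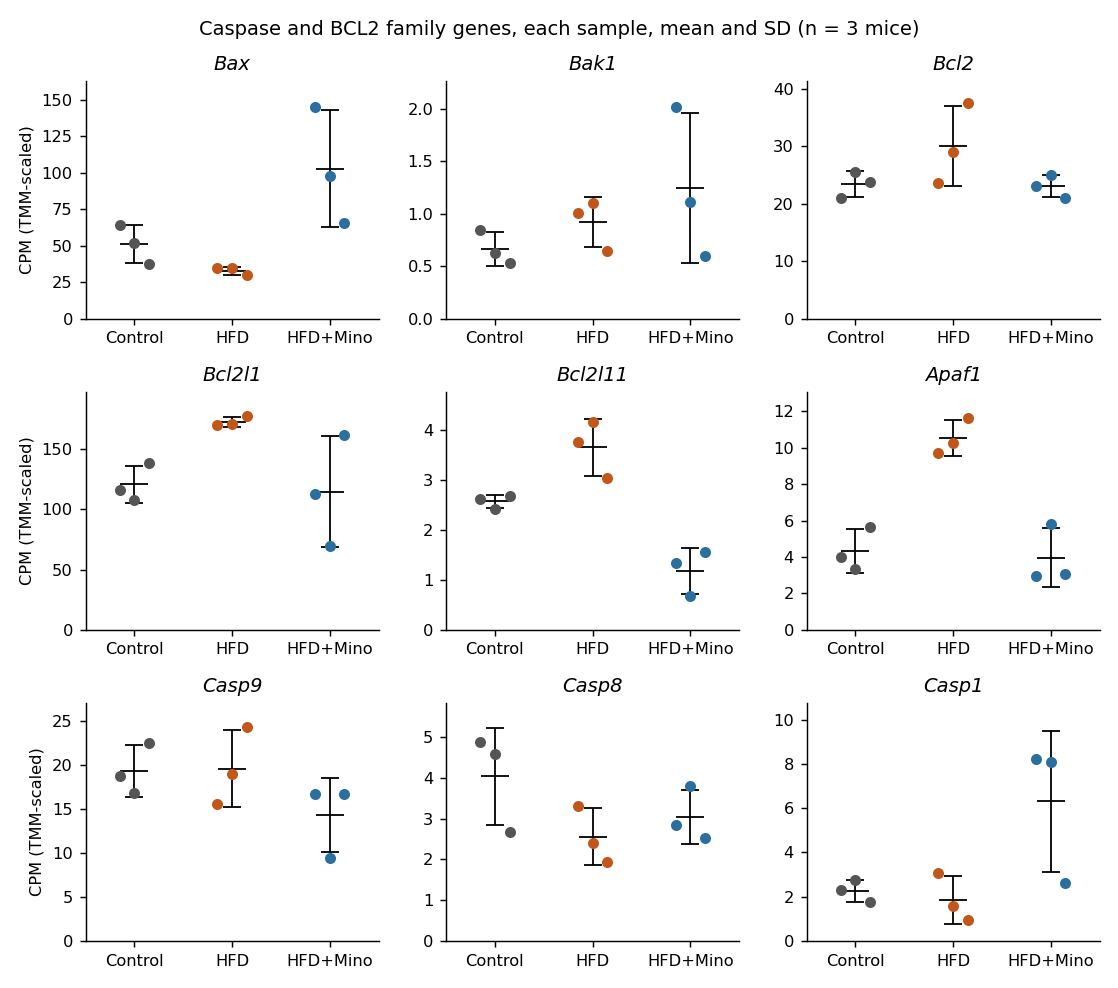
CPM of each member (vertical axes, TMM-scaled, starting at 0) in Control, HFD and HFD+Mino mice (horizontal axes), with a point for each mouse and the mean and SD of 3 mice. Apaf1 in the 3 HFD mice lay above the 6 other mice, and Bax in the 3 HFD mice lay below them, at 29.7 to 34.7 CPM.

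In replicates 1 to 3, Control mice had 63.8, 52.1 and 37.4 CPM of Bax, HFD mice 34.4, 34.7 and 29.7 CPM, and HFD+Mino mice 145, 97.6 and 65.7 CPM. Every HFD mouse was below every other mouse, and every HFD+Mino mouse was above every Control mouse. Control averaged 51.1 ± 13.2 CPM, HFD 32.9 ± 2.77 CPM and HFD+Mino 103 ± 39.8 CPM (SD, n = 3). Bax was 3.12-fold higher in HFD+Mino than in HFD (log2 fold change 1.64, SE 0.30, 95% interval 0.97 to 2.31, FDR 0.0080). The difference between HFD and Control was not called (log2 fold change -0.63, SE 0.30, FDR 0.260), nor was that between HFD+Mino and Control (log2 fold change 1.01, SE 0.30, FDR 0.133). In the 3-way test HFD differed from that common mean by -0.76 (log2, FDR 0.0148).

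The call for Bax sat close to its threshold. Without the 3 libraries that stood apart, the log2 fold change between HFD+Mino and HFD was 0.95 (FDR 0.0326), and Bax was not called. It was 1.62 without Control replicate 2 (FDR 0.0179), from 1.58 to 1.68 without any of the HFD replicates (FDR 0.0359, 0.0366 and 0.0501 without replicates 1, 2 and 3), 1.31 without HFD+Mino replicate 1 (FDR 0.0344) and 1.68 without HFD+Mino replicate 2 (FDR 0.0166), and in each of these 6 fits the call was lost. A block for replicate numbers, fitted in the Control and HFD+Mino mice, was added after seeing the data. Its pairing comes from the counts alone, so its calls are no independent support. With this block Bax was called against Control as well (log2 fold change 0.97, FDR 0.00727). In the same fit with the trend on exon length removed it was not (log2 fold change 0.42, FDR 0.0946). That block called 3 members between HFD+Mino and HFD (Apaf1, Bax and Bcl2l11), where it called 25.6% of all tested genes. It called 1 member in the 3-way test (Bax, background 13.2%), 1 against Control (Bax, background 3.18%) and 0 for HFD against Control (background 6.22%). With the block over all 9 mice Bax was called in the 3-way test (FDR 0.00775), as were 2.81% of all tested genes. That block also joins each HFD mouse to the same-numbered mice of the other groups, a pairing that no source names. Deviations of HFD mice from their group mean correlated at -0.133, -0.109 and -0.00624 with Control and at -0.152, -0.125 and -0.0522 with HFD+Mino. The call of this block is likewise no independent support.

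Bak1, the other pore former, was among the least abundant members, with 18 to 59 counts in a library. Control mice had 0.845, 0.621 and 0.530 CPM, HFD mice 1.00, 1.10 and 0.647 CPM and HFD+Mino mice 2.02, 1.11 and 0.601 CPM. The 3 groups overlapped, and the difference between HFD+Mino and HFD was not resolved (log2 fold change 0.44, 95% interval -0.88 to 1.76, FDR 0.613). Without the 3 libraries that stood apart its direction turned (log2 fold change -0.65, FDR 0.702). Its exons share 437 and 177 nt with the opposite-strand gene Ggnbp1, and whether reads were counted by strand is not given in the sources used here.

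The prosurvival members did not pass the test in any comparison. For Bcl2, Control mice had 21, 25.5 and 23.8 CPM, HFD mice 23.6, 28.9 and 37.4 CPM and HFD+Mino mice 23.0, 24.9 and 21.1 CPM. The Control and HFD+Mino values of Bcl2 overlapped, with a log2 fold change between them of -0.03 (95% interval -0.53 to 0.48, FDR 0.958). Bcl2l1 encodes Bcl-xL, and Control mice had 116, 108 and 138 CPM of it, HFD mice 170, 171 and 177 CPM and HFD+Mino mice 113, 69.5 and 162 CPM. Each HFD mouse was above each mouse of the other groups for Bcl2l1, by log2 fold changes of 0.52 against Control (FDR 0.321) and -0.59 for HFD+Mino against HFD (FDR 0.134). The HFD+Mino mice spread widely (115 ± 46.4 CPM, SD, n = 3) beside the HFD mice (173 ± 4.0 CPM). Bcl2 exons share 558 nt with the antisense gene D630008O14Rik.

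Bcl2l11, which encodes the BH3-only protein Bim, and Apaf1, the scaffold of the apoptosome, differed between HFD+Mino and HFD in the direction opposite to Bax, though neither was called. Control mice had 2.63, 2.43 and 2.68 CPM of Bcl2l11, HFD mice 3.76, 4.18 and 3.04 CPM and HFD+Mino mice 1.34, 0.669 and 1.56 CPM, and the 3 groups did not overlap. These values rest on 18 to 144 counts in a library. The log2 fold change of Bcl2l11 between HFD+Mino and HFD was -1.62 (SE 0.42, FDR 0.0195), past an FDR of 0.05 but not of 0.01, and against Control it was -1.11 (FDR 0.173). For Apaf1, Control mice had 3.97, 3.33 and 5.65 CPM, HFD mice 9.74, 10.2 and 11.6 CPM and HFD+Mino mice 2.98, 5.83 and 3.09 CPM. The lowest HFD mouse was above the highest of the 6 other mice, and Control and HFD+Mino overlapped. Mean Apaf1 was 4.32 ± 1.20 CPM for Control, 10.5 ± 0.978 CPM for HFD and 3.97 ± 1.62 CPM for HFD+Mino (SD, n = 3). Its log2 fold changes were 1.29 for HFD against Control (SE 0.36, FDR 0.0608), -1.41 for HFD+Mino against HFD (SE 0.36, FDR 0.0180) and -0.12 for HFD+Mino against Control (FDR 0.856). Without the 3 libraries that stood apart, Apaf1 differed by 1.22 between HFD and Control (FDR 0.0304) and by -1.81 between HFD+Mino and HFD (FDR 0.0248), and Bcl2l11 by -1.27 between HFD+Mino and HFD (FDR 0.101).

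Other measures followed the same groups as Apaf1 and Bcl2l11. The 3 markers of oligodendrocyte precursors summed to 39.5 to 75 CPM for Control, 119 to 125 CPM for HFD and 34.2 to 45.1 CPM for HFD+Mino, and the 3-way test called 2 of the 3 as highest in HFD. The 6 astrocyte markers summed to 1912 to 2049, 2484 to 2700 and 1483 to 1808 CPM in the same order, with 0 of 6 called. Within that list Gfap averaged 266, 172 and 128 CPM and Slc1a2 333, 414 and 458 CPM, so neither was highest in HFD. The ribosomal precursor RNA Rn45s was at 239 to 461, 3477 to 3829 and 426 to 1346 CPM. The part of these in the values of Apaf1, Bcl2l11, Bcl2l1 and Bax was not tested.

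Casp9, the caspase that the apoptosome activates, was at 18.7, 16.7 and 22.5 CPM for Control mice, 15.5, 19.0 and 24.2 CPM for HFD mice and 16.7, 9.44 and 16.7 CPM for HFD+Mino mice. HFD and Control overlapped (log2 fold change 0.02, 95% interval -0.61 to 0.65, FDR 0.979), and HFD+Mino differed from HFD by -0.45 (95% interval -1.09 to 0.18, FDR 0.260). Casp8, the death receptor caspase, was at 4.87, 4.57 and 2.68 CPM for Control mice, 3.31, 2.41 and 1.94 CPM for HFD mice and 2.84, 3.79 and 2.51 CPM for HFD+Mino mice, with overlap between all groups. Its log2 fold change was -0.67 between HFD and Control (FDR 0.364) and 0.26 between HFD+Mino and HFD (FDR 0.650).

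Casp1, the inflammasome caspase, rested on 2 of the 3 HFD+Mino mice. Control mice had 2.29, 2.77 and 1.77 CPM, HFD mice 3.06, 1.60 and 0.946 CPM and HFD+Mino mice 8.22, 8.10 and 2.62 CPM, from 38 to 240 counts in a library. The log2 fold change between HFD+Mino and HFD was 1.77 (SE 0.55, FDR 0.0348) and between HFD+Mino and Control 1.47 (SE 0.54, FDR 0.166). HFD+Mino replicate 3 was within the range of the HFD and Control mice. Without the 3 libraries that stood apart the difference between HFD+Mino and HFD was 0.47 (FDR 0.707). The 8 microglia and macrophage markers summed to 407, 379 and 381 CPM in HFD+Mino replicates 1 to 3, 343 to 380 CPM in HFD and 272 to 422 CPM in Control, with 0 of 8 called in any comparison. The 6 markers of blood and infiltrating leukocytes, mostly the globin Hba-a1, summed to 90.9, 75.6 and 12.9 CPM in HFD+Mino replicates 1 to 3, 12 to 21.7 CPM in HFD and 14.9 to 56.8 CPM in Control, with 0 of the 3 tested called. Cd3e, which marks T cells, was at most at 0.502 CPM in any library. In the same list, HFD+Mino replicates 1 to 3 had 2.29, 0.966 and 0 CPM of S100a8, which was not tested. Ly6c2 was at 0.924, 0.817 and 0.355 CPM there. HFD mice had at most 0.249 CPM of S100a8 and 0.151 CPM of Ly6c2, and Control mice at most 0.169 and 0.447 CPM. Both genes rest on few counts, 0 to 67 for S100a8 and 3 to 27 for Ly6c2. Their part in the Casp1 values was not tested.

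**Figure D2:**
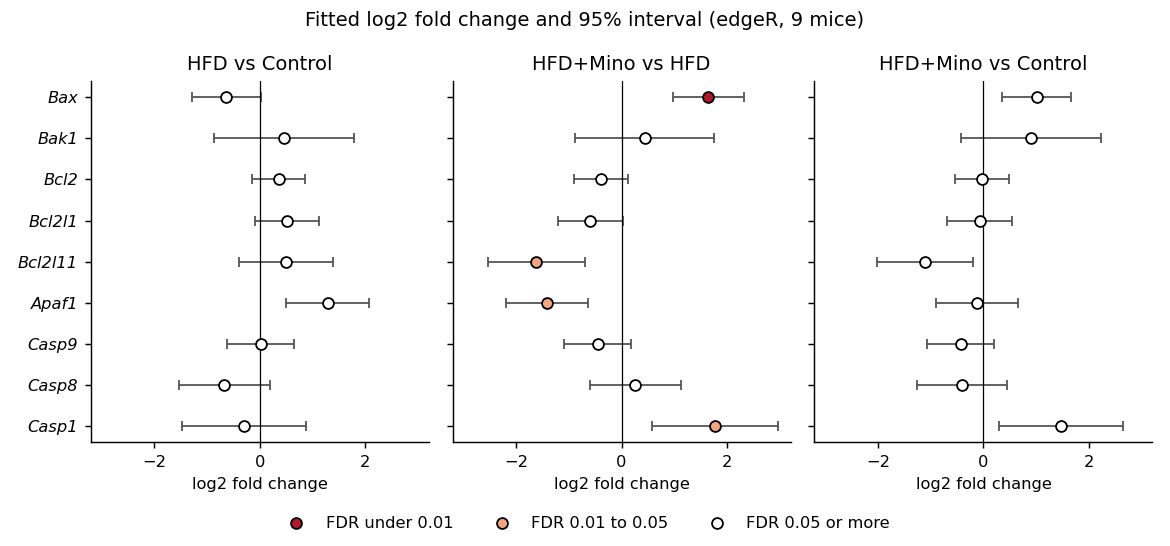
Log2 fold change (horizontal axes) of each member (vertical axis) in the 3 comparisons of pairs, with 95% intervals from the edgeR fit over 9 mice. Bax is the only point with an FDR under 0.01, between HFD+Mino and HFD, and Casp1, Apaf1 and Bcl2l11 lie between 0.01 and 0.05 there.

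At the wider FDR of 0.05, with the same fold threshold, 4 of the 9 members passed between HFD+Mino and HFD (44.4%), namely Bax and Casp1 as higher and Apaf1 and Bcl2l11 as lower, where 27.4% of all tested genes passed. In the 3-way test 3 of 9 passed (33.3%), with Apaf1 and Bcl2l11 highest and Bax lowest in HFD, where 13.0% of all tested genes passed. Between HFD and Control 0 of 9 passed (background 5.77%). Groups did not overlap for 4 members with HFD against Control (background 35.7%), for 4 with HFD+Mino against HFD (background 46.7%) and for 3 with HFD+Mino against Control (background 19.1%), and the 3 HFD mice lay beyond all 6 others for 4 members (Apaf1, Bax, Bcl2l1 and Bcl2l11, background 23.0%). The shares in both pairs with HFD (44.4%) were near their background. The comparisons with HFD share the HFD mice, so their values are not independent. The median log2 fold change of the members was 0.36 for HFD against Control, -0.38 for HFD+Mino against HFD and -0.07 for HFD+Mino against Control, while the medians of all tested genes were 0.004, 0.009 and -0.02. DESeq2, another count test, called 4 members in the 3-way test (Apaf1, Bax, Bcl2l11 and Casp1, background 13.6%), 1 between HFD and Control (Apaf1, background 6.91%) and the same 4 genes between HFD+Mino and HFD (background 23.0%).

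Between HFD+Mino and HFD, the 4 members with the shortest exons had positive fold changes and the 5 with the longest negative ones. Casp1 (1497 nt of exon) and Bax (1576 nt) are the shortest members, and Apaf1 (9028 nt), Bcl2 (9157 nt) and Bcl2l11 (8029 nt) the longest. Over all tested genes with a length, the median log2 fold change between HFD+Mino and HFD was 0.91 for the 2104 genes of over 1000 and up to 2000 nt and -0.58 for the 2735 genes of over 8000 nt. Bax at 1.64 and Casp1 at 1.77 were above the median of their length class, and Apaf1 at -1.41 and Bcl2l11 at -1.62 were below theirs, while Bcl2 at -0.38 was above it. With a smooth trend on exon length removed from each library, Bax differed by 0.80 between HFD+Mino and HFD (FDR 0.0188) and was no longer called, Casp1 by 0.86 (FDR 0.216), Apaf1 by -0.87 (FDR 0.0835) and Bcl2l11 by -1.12 (FDR 0.0774). Bcl2 changed sign to 0.17. With a trend on GC content removed, Bax differed by 1.57 (FDR 0.0121) and was not called. Between HFD and Control the medians were -0.28 for over 1000 to 2000 nt and 0.41 for over 8000 nt. In that pair Casp1 was at -0.30 and Bax at -0.63, and Apaf1 at 1.29, Bcl2 at 0.36 and Bcl2l11 at 0.50. The part of exon length in the differences of either pair was not tested further. Bax exons share 192 nt with the same-strand gene Gm45808, and its count is uncertain to that extent.

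**Figure D3:**
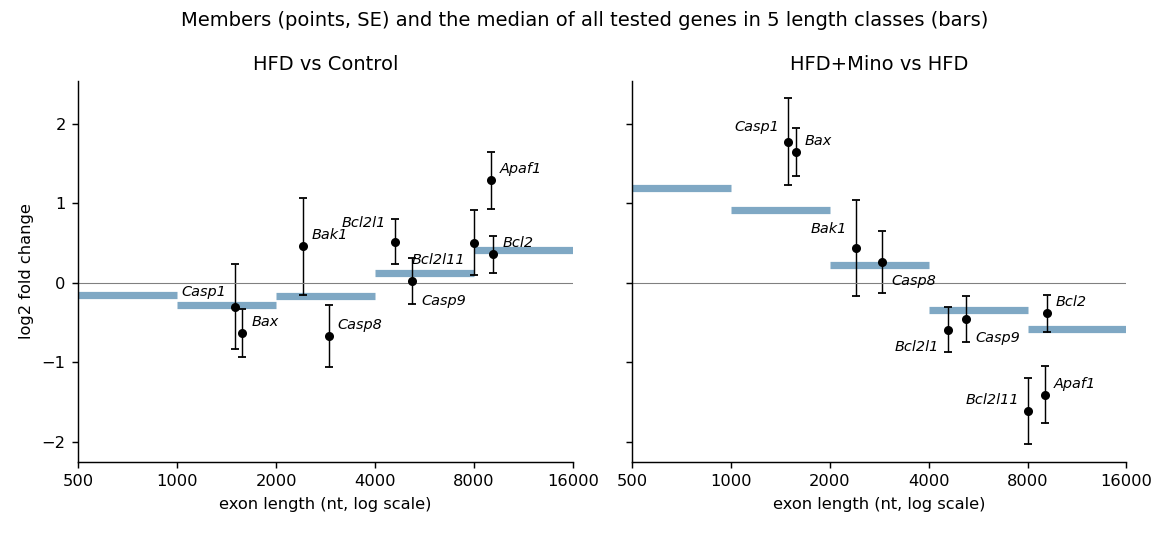
Log2 fold change (vertical axis) of each member against its exon length in nt (horizontal axis, log scale) for HFD against Control and HFD+Mino against HFD, with the SE as error bars and the median of all tested genes in 5 length classes as horizontal bars. Between HFD+Mino and HFD the bars fall from 1.19 for genes of up to 1000 nt to -0.58 above 8000 nt, and the positive points belong to Casp1, Bax, Bak1 and Casp8.

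Levels of different genes were compared as CPM per kb of exon. Over the 9 mice Bax averaged 39.5 and Bcl2l1 29.7 CPM per kb, and the next was Casp9 at 3.41, with no overlap between the ranges of Bcl2l1 (15.2 to 38.7) and Casp9 (1.82 to 4.67). Bcl2 followed at 2.78, Casp1 at 2.33, Casp8 at 1.11, Apaf1 at 0.695, Bak1 at 0.392 and Bcl2l11 at 0.308 CPM per kb. Every neighbouring pair in this order other than Bcl2l1 and Casp9 overlapped in range. Bax was above Bcl2l1 in 5 of the 9 mice.

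The order of the group means of Bax and Bcl2l1 differed between HFD and HFD+Mino. In HFD, Bcl2l1 stood at 37.7 ± 0.871 CPM per kb and Bax at 20.9 ± 1.76 (SD, n = 3), whereas in HFD+Mino Bax stood at 65.2 ± 25.3 and Bcl2l1 at 25.1 ± 10.1. Control mice had ratios of Bax to Bcl2l1 per kb of 1.60, 1.41 and 0.788, HFD mice of 0.589, 0.589 and 0.487 and HFD+Mino mice of 3.73, 4.09 and 1.18. The 2 high HFD+Mino ratios came from replicates 1 and 2, which stood apart. Replicate 3 lay within the Control range, so HFD+Mino and Control overlapped for this ratio. The ratio of Bax to Bcl2 was 17.7, 11.9 and 9.12 for Control mice, 8.45, 6.96 and 4.61 for HFD mice and 36.5, 22.8 and 18.1 for HFD+Mino mice, and the 3 groups did not overlap. On the log2 scale the ratio of Bax to Bcl2 averaged 3.63 ± 0.48 for Control, 2.69 ± 0.45 for HFD and 4.63 ± 0.52 for HFD+Mino (SD, n = 3). The ratios are given as a description and without a test, and they set a gene of 1576 nt against genes of 4586 and 9157 nt. Between HFD+Mino and HFD the median log2 fold changes of their length classes were 0.91 (Bax), -0.34 (Bcl2l1) and -0.58 (Bcl2). With the trend on exon length removed, the fold change of Bax in this pair was smaller and that of Bcl2 changed sign, as given above. The ratios were not computed again without that trend, and the part of exon length in them was not tested further.

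**Figure D4:**
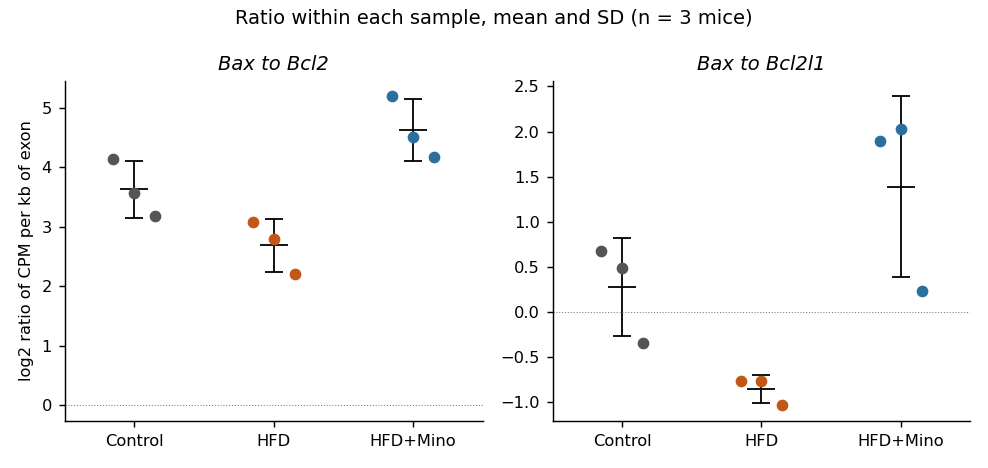
Log2 ratio (vertical axes) of Bax to Bcl2 (left) and to Bcl2l1 (right), in CPM per kb of exon, for each Control, HFD and HFD+Mino mouse (horizontal axes), with the mean and SD of 3 mice. HFD is lowest in both panels, and HFD+Mino replicate 3 lies near the Control mice for Bax to Bcl2l1.

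The genes whose log2 CPM over the 9 mice was most like that of Bax were Mzt2 (Pearson r = 0.995), Alkbh6 (r = 0.993) and Tfpt (r = 0.993). Of all tested genes, 1329 had an r above 0.9 with Bax, so its profile was a common one. Mzt2 has 1309 nt of exon, Tfpt 1201 nt and Alkbh6 3123 nt.

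Beyond the members, 63 other genes of the same pathways were examined in 11 lists that also hold the members, and 52 of the 63 passed the filter. None of the 52 was called by edgeR's quasi-likelihood test in the 3-way test or in any pair, while an unadjusted p under 0.05 was reached by 16 in the 3-way test (30.8%), 7 for HFD against Control (13.5%), 24 for HFD+Mino against HFD (46.2%) and 4 for HFD+Mino against Control (7.69%). Over all tested genes those shares were 39.0%, 20.5%, 41.3% and 21.3%. DESeq2 called 4, 3, 8 and 0 of the 52 in those comparisons, beside 13.6%, 6.91%, 23.0% and 1.59% of all tested genes. The fit with the block in Control and HFD+Mino mice called 2, 2, 10 and 0 of the 52, beside 13.2%, 6.22%, 25.6% and 3.18% of all tested genes. At an FDR of 0.05, 10 of the 52 were higher and 2 lower in HFD+Mino than in HFD, or 23.1%, beside 27.4% of all tested genes. The median log2 fold change of the 52 between HFD+Mino and HFD was 0.13.

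Each list other than that of the pore formers, which holds Bax, is described here by its non-member with the smallest p in the 3-way test. That gene need not go the way of the rest of its list. Among the executioner caspases, which cut the cell's proteins, Casp6 differed by 1.10 between HFD+Mino and HFD (FDR 0.0341). It was the only positive one of these 3, and the 2 others were negative (median of the list -0.90). Diablo, which releases caspases from their inhibitors, differed by 0.79 (FDR 0.0432) and Bad, a BH3-only protein controlled by phosphorylation, by 0.92 (FDR 0.0374). Of the 7 tested BH3-only genes, 3 were positive and 4 negative in that pair. Mcl1, a short-lived prosurvival protein, averaged 31.0 ± 2.18 CPM for Control, 10.1 ± 1.36 CPM for HFD and 20.7 ± 9.57 CPM for HFD+Mino (SD, n = 3). Its log2 fold changes were -1.62 for HFD against Control (FDR 0.0131) and 1.03 for HFD+Mino against HFD (FDR 0.0319). In the first of these pairs its relatives Bcl2 and Bcl2l1 were at 0.36 and 0.52, and Bcl2l2 and Bcl2a1b at -0.33 and -0.92. None of these relatives was called. Bcl2a1b, with 13 to 62 counts in a library, shares 401 of its 817 nt of exon with the same-strand gene Gm29094. Bcl2l2 shares 594 of its 4462 nt with the same-strand gene Gm20521. Birc6, a very large inhibitor of apoptosis with 25772 nt of exon, averaged 22 ± 0.914 CPM for Control, 50.4 ± 7.17 CPM for HFD and 27.0 ± 10.4 CPM for HFD+Mino. Its log2 fold change between HFD and Control was 1.19 (FDR 0.0293), where the median of tested genes of over 8000 nt was 0.41. Without the 3 libraries that stood apart, Birc6 and Mcl1 were called in the 3-way test (background 4.09%), for HFD against Control (background 4.0%) and for HFD+Mino against HFD (background 2.52%).

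The death receptor Fas differed by 1.44 between HFD+Mino and HFD (FDR 0.0213). It was the only positive one of the 8 tested genes of its list. The 7 others were negative, and the median log2 fold change of the list was -0.51. The nuclease Dffb, which cuts DNA in dying cells, differed by 0.95 between HFD+Mino and HFD (FDR 0.0306). Trp53, which encodes p53, a transcription factor that can activate Bax, averaged 27.7 ± 1.48 CPM for Control, 18.6 ± 2.24 CPM for HFD and 35.7 ± 5.46 CPM for HFD+Mino (SD, n = 3). Its log2 fold change between HFD+Mino and HFD was 0.94 (SE 0.22, FDR 0.0137). Il18, a cytokine that caspase-1 matures, differed by 0.99 between HFD+Mino and HFD (FDR 0.0583), and Casp12, a caspase at the endoplasmic reticulum, by -0.94 (FDR 0.276). Diablo shares 1326 nt of its exons with the opposite-strand gene B3gnt4 and 1193 nt with the same-strand gene Gm49027, and Bad shares 524 nt with Gpr137.

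**Figure D5:**
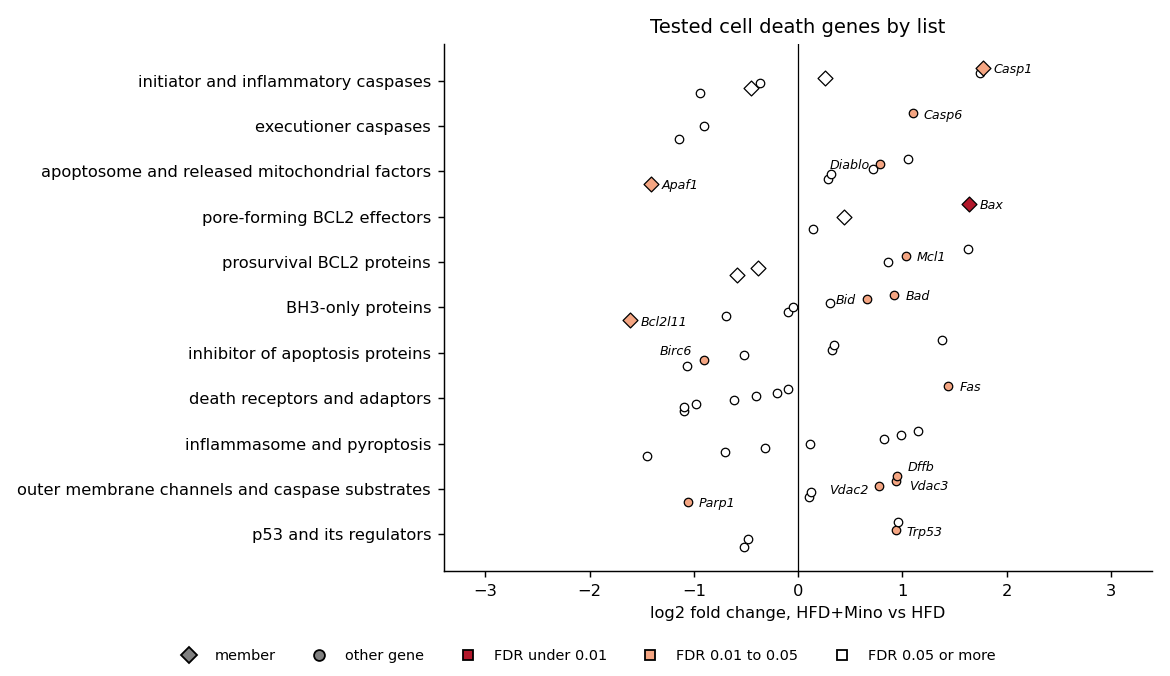
Log2 fold change between HFD+Mino and HFD (horizontal axis) of every tested cell death gene in 11 lists (vertical axis), with diamonds for the members, circles for other genes and colour for the FDR. Bax is the only gene with an FDR under 0.01, and 15 more, 3 members and 12 others, lie between 0.01 and 0.05.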

How the data were processed

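Bulk RNA sequencing of PVN punches from 9 mice was used. The authors aligned reads of 2 x 50 cycles with HISAT2 to mm10, ran featureCounts per gene and deposited the raw counts, unnormalized (tool versions and strand setting are not given in the sources used here). Reads carry no molecular identifiers. Of the listed genes, 958 have no symbol, and 0 columns were left unused.

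Tests used edgeR 4.0.16 (R 4.3.3, filterByExpr, TMM, quasi-likelihood fit of the groups over all 9 samples), and DESeq2 1.42.0 as an alternative. Intervals at 95% use the t distribution of the fit. Exon length and GC content are from GENCODE M21, for 16844 of the 17344 tested genes, and promoters from RefSeq. The authors' annotation may differ. The code was tested on simulated data.

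The members and lists were chosen with earlier results of these data known. The named genes are the members, the called genes, in each list without a called gene the one with the smallest 3-way p, and the 3 profiles most like a called member. Avp, Oxt, Hba-a1, Cd3e, S100a8, Ly6c2, Rn45s, Gfap, Slc1a2, Bcl2l2 and Bcl2a1b were named after their values were seen. Alternatives changed the test, size factors, filter, thresholds, samples, replicate block and trends on length or GC content. The replicate block in Control and HFD+Mino alone, also with the length trend removed, and leaving out 3 libraries were added after seeing the data. Same-numbered Control and HFD+Mino samples deviated together (correlations 0.135, 0.163 and 0.292), a pairing that comes from the counts alone, since no source names a shared litter or day.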

Additional observations from a re-analysis of the deposited data

How the results depend on the processing

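Bak1, Bcl2l11 and Casp1 had the smallest counts of the members, with minima of 18, 18 and 38 in a library. Whether depth limited their comparisons was not tested. Settings that are not named moved no count of called genes by over 1.5 times and turned no direction. In the order 3-way test, HFD against Control and HFD+Mino against HFD, the likelihood ratio test called 2, 0 and 3 members and 3, 2 and 2 other cell death genes (12.9%, 5.57% and 19.1% of all tested genes). DESeq2 called 4, 1 and 4 members and 4, 3 and 8 others (13.6%, 6.91% and 23.0%). An FDR of 0.05 gave 3, 0 and 4 members and 4, 2 and 12 others (13.0%, 5.77% and 27.4% of all tested genes). No filter gave 1 member and 1 other in the 3-way test and 1 other between HFD and Control. The replicate block over all 9 samples gave 1 member, Bax, in the 3-way test. The block in Control and HFD+Mino alone gave 1, 0 and 3 members, 2, 2 and 10 others, and 1 member between HFD+Mino and Control (25.6% of all genes called between HFD+Mino and HFD). It changed no other call. Between HFD+Mino and HFD, removing the trend on exon length, removing that on GC content (2 others called), a model of 6 samples and leaving out the 3 libraries that stood apart each gave 0 members. Leaving out those libraries gave 2 others in each of the 3 comparisons, and the model of 6 gave 2 between HFD and Control. With single samples left out, members called ranged from 0 to 2 in the 3-way test and from 0 to 2 between HFD+Mino and HFD, where they were Bax and Casp1 without HFD+Mino replicate 3. The others ranged from 0 to 4 in the 3-way test, 0 to 1 between HFD and Control, 0 to 8 between HFD+Mino and HFD and 0 to 1 between HFD+Mino and Control, with each maximum reached without HFD+Mino replicate 3. The share of all tested genes that was called also moved with the setting. Counts given without that share, such as those with single samples left out, are therefore not results about these genes. Beside the construction of each alternative, the cause was not tested.

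Some values that were not called turned sign. With no filter these were Casp9 between HFD and Control (-3.1e-05) and the distance of HFD for Bak1 (-0.012), which was -0.040 with the GC trend removed. With the length trend removed they were Casp9 between HFD and Control (-0.090), Bak1 (-0.014) and Bcl2 (0.17) between HFD+Mino and HFD, the distance of HFD for Bcl2 (-0.054), and between HFD+Mino and Control Apaf1 (0.092), Bcl2 (0.18) and Bcl2l1 (0.098). With the block as well, the last 3 were 0.037, 0.18 and 0.050. Without the 3 libraries they were Casp8 (-0.057) and Bak1 (-0.65) between HFD+Mino and HFD, Casp9 (-0.0096) between HFD and Control and Bcl2l1 (0.35) between HFD+Mino and Control. With single samples left out, Apaf1 ranged from -0.51 to 0.11, Bcl2 from -0.10 to 0.030 and Bcl2l1 from -0.41 to 0.19 between HFD+Mino and Control, Bak1 from -0.10 to 0.77 between HFD+Mino and HFD and from -0.11 to 0.18 as the distance of HFD, Casp1 from -0.84 to 0.016 and Casp9 from -0.17 to 0.16 between HFD and Control.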
